A study of Oncorhynchus kisutch with 221 samples.

Results

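The 200 array probes described here were read more often in the white muscle of river parr than in that of coho salmon caught at sea. A probe was eligible when it had a value in under 50% of the fish of at least 1 of 6 season labels, and 25047 of 43636 probes were. The eligible probes were ranked by the share of parr with a value minus the share of all ocean fish with a value, and the 200 highest were kept. The probes were thus chosen by their shares of parr and ocean fish with a value, so parr and ocean fish are set side by side below as a description, with no test. The probes were seldom truly empty at sea. On average 31.7% of ocean fish had a value, only 24 of the 200 probes had one in under 10% of ocean fish, and 35 had one in 50% or more.

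Coho salmon (Oncorhynchus kisutch) hatch in rivers, where the young live as parr. Parr turn into smolts, which change their salt balance, body shape and energy stores before they enter the sea, and the fish then grow fast in salt water. White muscle is the fast swimming muscle and makes up most of the fillet. On the arrays used, the RNA of 1 fish carried one dye and a pool of all muscle samples carried another, so a value is likely the log2 ratio of the fish over the pool, and 0 then means a level equal to the pool. An empty cell means that the deposited table holds no value for that probe in that fish. The filter that left cells empty is not given in the sources used here, so an empty cell is not a measurement of a low level. Genes could not be assigned to these identifiers from the tables at hand, so each probe keeps its array identifier, and no gene, function or sequence is given.

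Each of 221 fish was hybridised on its own array, with up to 4 arrays on each of 61 slides, and the number of arrays limits the precision. The 9 parr were hatchery fish of 2008 from the Chilliwack, with fork lengths of 4.80 to 5.50 cm, and they lay on 4 slides. The 48 smolts were 8 wild Chilliwack fish of 2008 and, of 2009, 6 wild Capilano, 6 wild Salmon, 9 hatchery Capilano, 10 hatchery Chehalis and 9 hatchery Puntledge fish. The 15 ocean spring fish were wild and came from the southern Strait of Georgia in 2009. The 64 ocean summer fish (7 of them from 2008) and the 76 ocean fall fish (8 of them from 2008) were wild or of hatchery origin, from the southern, middle and northern strait and the west coast of Vancouver Island. The 9 ocean winter fish of 2009 were 5 hatchery and 4 wild fish, 6 from the west coast and 3 from the middle strait. The labels also gave stocks. Of the 164 ocean fish, 53 were labelled Fraser, 47 ECVI, 34 S_Main and 3 Chilliwack, with the rest of other or no stock. The wild Chilliwack smolts shared river and year with the parr but not origin, so between these groups stage and origin cannot be told apart. Ocean fish were 9.50 to 38.0 cm long, mostly of 2009, mostly of other stocks than the parr, and in part wild. Between parr and ocean fish, stage cannot be told apart from size, and it was not separated from year, stock or origin. Pieces of muscle were used whole, so fewer cells of a type and less RNA per cell cannot be told apart either, and without gene names the tissue was not checked against its markers. Of all probes, 37.7% to 49.5% had a value on a parr array and 32.2% to 81.5% on an ocean array.

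A pair of fish stood apart from the other fish of their label. The fish labelled ocean spring replicate 2, 11.0 cm long, correlated with the mean of the parr at r = 0.84 over 16099 probes outside the 200, counting probes with a value in at least 5 parr. Correlations of the other 14 spring fish with that mean lay between 0.09 and 0.60, and the highest among all other ocean fish and smolts was 0.69. The fish labelled parr replicate 9 correlated at 0.35 with the mean of the other parr, which was outside the range of 0.73 to 0.87 of parr replicates 1 to 8. Its correlations with the means of the other seasons, over the same kind of probes, lay between 0.08 and 0.35. These correlations are across probes, which are not independent and share the array and the pool, and they are given as a description. The results below keep both fish under their labels and give the values without them where they bear on a result.

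In 3 ocean winter fish, replicates 4, 6 and 8, fewer probes had a value than in any other fish. These hatchery fish from the west coast, all labelled Puget_Sound stock, lay on 1 slide. On that slide 32.2% to 34.0% of all probes had a value. Of the 200 probes they had 2, 3 and 0.

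The ranking put the probes with the largest difference in share first. C082R066 ranked first, with a value in 8 of 9 parr and in 12 of 164 ocean fish (7.32%). Its log2 ratios in parr replicates 1 to 8 were 1.80, 1.85, 1.51, 1.44, 1.01, 1.42, 1.80 and 1.03, and parr replicate 9 had no value. The 9 smolts with a value ranged from -0.61 to 0.78, with a median of 0.32. In the 12 ocean fish the values ran from -0.86 to 0.80, with a median of -0.07. Parr and ocean fish did not overlap, and the mean was 1.48 ± 0.33 in parr (SD, n = 8) against -0.04 ± 0.50 in ocean fish (SD, n = 12).

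The second probe was C179R076, with a value in 8 of 9 parr and 13 of 164 ocean fish (7.93%). In parr replicates 1 to 8 its log2 ratios were 1.62, 1.84, 1.19, 1.41, 1.11, 1.75, 1.31 and 1.25. The 15 smolts with a value lay between -0.51 and 1.00, below every parr. Of the ocean fish, spring replicate 2 was highest at 2.52, above every parr, and all others lay at or below 0.93.

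At the end of the list stood C030R103 and C191R048, each with a value in 4 of 9 parr and 31 of 164 ocean fish, a difference of 25.5 points. C030R103 had log2 ratios of 0.40, 0.81, 0.86 and 0.62 in parr replicates 1, 6, 7 and 8, within the range of ocean fish. C191R048 averaged 0.41 ± 0.34 in parr (SD, n = 4) and 0.47 ± 0.55 in ocean fish (SD, n = 31). Just outside the list were C222R102 and C233R168, each with a value in 8 of 9 parr and 104 of 164 ocean fish, also a difference of 25.5 points when rounded. C222R102 averaged 0.36 ± 0.69 in parr (SD, n = 8) and 0.11 ± 0.45 in ocean fish (SD, n = 104). C233R168 averaged 1.69 ± 1.28 in parr (SD, n = 8) and -0.91 ± 0.93 in ocean fish (SD, n = 104), and the groups overlapped, with parr from -0.10 to 3.66 and ocean fish from -2.33 to 2.71.

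Over the 200 probes, the difference between the shares of parr and of ocean fish had a median of 37.2 points and ran from 25.5 to 81.6. Among the other 24847 eligible probes the median was -6.71 points, and 9.85% had a higher share in parr than in ocean fish. A probe could be eligible by a low share in parr alone, and the highest 200 were taken out. Both values thus follow in part from the choice. In parr the share of fish with a value was 72.1% on average over the 200 probes (SD 18.3 over probes), and 25 of the probes had a value in fewer than 50% of parr. The 24 probes under 10% at sea had a value in a median of 44.4% of parr and 9.38% of smolts. The 35 probes at 50% or more at sea had one in a median of 88.9% of parr and 60.4% of smolts. The list therefore joined probes that few fish had in any season with probes that most parr and many ocean fish had: 24 of the 200 lay under 50% in all 6 seasons.

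Counted by fish, the parr had values for a median of 84% of the 200 probes, with 42.5% to 95.5%. Smolts had a median of 37% (3% to 84%), ocean spring fish 26.5% (7% to 74.5%), summer fish 28.5% (5.5% to 76%), fall fish 28.75% (0.5% to 75.5%) and winter fish 56% (0% to 69%). The mean share of the 200 with a value was 72.1% ± 20.7 in parr (SD, n = 9), 40.3% ± 23.2 in smolts (SD, n = 48), 32.1% ± 20.8 in spring (SD, n = 15), 32.1% ± 17.3 in summer (SD, n = 64), 30.5% ± 17.2 in fall (SD, n = 76) and 37.2% ± 30.4 in winter (SD, n = 9). Parr overlapped with the other seasons through 4 fish, replicates 4, 5, 6 and 9, which had 63.5%, 50.5%, 49% and 42.5%. Replicates 1, 2, 3, 7 and 8 had 84%, 86.5%, 92.5%, 95.5% and 84.5%, and of all smolts and ocean fish only 1 smolt reached 84%. Without parr replicate 9 the parr mean was 75.8%, and without spring replicate 2 the ocean mean was 31.6%.

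How many of the 200 probes a fish had moved with how much of its array had a value. Ocean fish split into 3 sets of like size by the share of all probes with a value had medians of 13%, 28% and 51% of the 200 probes from the lowest to the highest set. Parr went against this, which the choice of the probes favoured. Their arrays held values for fewer probes than most others, with means of 45.2% of all probes in parr, 53.8% in smolts and 52.8% in ocean fish. For the other eligible probes the mean share with a value was 7.92% ± 4.01 in parr (SD, n = 9), 21.9% ± 9.35 in smolts (SD, n = 48) and 20.3% ± 11.1 in ocean fish (SD, n = 164). That low parr share follows in part from the choice, since a low share in parr alone made a probe eligible. Among fish whose arrays lay in the range of the parr arrays, 12 smolts averaged 13.3% of the 200 and 43 ocean fish averaged 13.8%. The highest of these ocean fish was spring replicate 2 with 41.5%, and the highest smolt had 32%, both under the 42.5% of parr replicate 9. In these 43 ocean fish, 51% of the 200 probes had a value in under 10% of the fish, and 5 of the probes had one in 50% or more. What left the parr arrays with fewer values overall was not tested.

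Parr had more of the 200 probes than the ocean fish on the same slide, by little for parr replicate 9. The choice of the probes used these same fish and favoured this on any slide. It is thus a description, and a part of the slides in the difference was not tested. On one slide parr replicates 1 and 2 had 84% and 86.5% of the 200 probes, against 47.5% and 51% in a pair of fall fish. On another, parr replicates 7 and 8 had 95.5% and 84.5%, against 41% and 22% in a pair of summer fish. Parr replicate 9 had 42.5%, against 41% and 36.5% in a pair of fall fish and 6.5% in a smolt of its slide. The slide with only parr held replicates 3 to 6, with 92.5%, 63.5%, 50.5% and 49%. Of the 200 probes, 61.5% had a value in all of parr replicates 1, 2, 3, 7 and 8. Of these, parr replicate 9 had a value for 58 probes, or 47.2%, and replicates 4, 5 and 6 all had one for 45 probes, or 36.6%.

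Where the 200 probes had a value in parr, it was mostly above the pool. The mean over parr was above 0 for 185 of the 200 probes and above 1 for 47, with a median of 0.69 on the log2 scale. Among other probes with a value in at least as many parr as the least measured of the 200, 50.4% of parr means were above 0 and 1.16% above 1. These other probes were not matched for empty cells at sea. The 200 were chosen by which cells held a value, and whether that choice bears on their values was not tested. Means over smolts had a median of 0.19, and 164 of them were above 0, with 1 probe having no smolt value. Among other probes chosen by the same rule in smolts, 50.7% of smolt means were above 0. The median of the means was 0.18 in spring (0.10 without spring replicate 2), 0.10 in summer, -0.02 in fall and 0.19 in winter. In fall 93 of the 200 means were above 0, beside 55.7% of the fall means of other probes. The parr mean exceeded the ocean mean for 185 of the 200 probes, with a median difference of 0.63, and for 183 without parr replicate 9 and spring replicate 2, with a median of 0.66. The counts of parr means above ocean means have no share over other probes beside them. By class of ocean share, the median of the parr means was 0.69 for the 24 probes under 10% at sea, 0.84 for 53 probes from 10% to under 25%, 0.65 for 88 probes from 25% to under 50% and 0.68 for 35 probes at 50% or more.

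C015R099 and C103R106 had the highest parr means of the probes measured in every season. C015R099 had log2 ratios of 3.31, 1.81, 1.94, 2.51, 2.57, 2.49, 2.75 and 2.65 in parr replicates 1 to 8. The 11 smolts with a value lay between -0.73 and 0.61, and the 39 ocean fish averaged -0.21 ± 0.71 (SD, n = 39), against 2.50 ± 0.47 in parr (SD, n = 8). Of the ocean fish, spring replicate 2 had 1.95, above 2 of the 8 parr, and the highest summer fish had 1.80, below every parr. C103R106 was spread far wider. In parr replicates 1, 2, 3, 6, 7 and 8 its log2 ratios were 1.04, 2.61, 3.47, 3.79, 0.81 and 1.40, smolts ran from -2.0 to 3.23 (n = 23) and summer fish from -1.94 to 4.02 (n = 22), so parr overlapped with both.

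A small set ran the other way, with 15 of the 200 parr means below 0. For 11 of these 15 the ocean mean was above the parr mean. Of the 15, 6 had a value in under 10% of ocean fish. The lowest, chosen after their values were seen, were C200R136 and C199R136. C200R136 had log2 ratios of -1.22, -2.10 and -0.84 in parr replicates 2, 6 and 7, and its 5 ocean values averaged -0.07 ± 0.31 (SD, n = 5). C199R136 had -0.69, -2.21 and -1.11 in the same 3 parr, and its 5 ocean values averaged 0.09 ± 0.40 (SD, n = 5). Each had a value in 9 of 221 fish, and 8 of those fish were the same. If the digits of the identifiers are the column and row of a spot, these spots adjoin, and they are 1 of 4 adjoining pairs among the 200 probes.

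Taken per fish, the median log2 ratio of those of the 200 probes that had a value lay between 0.63 and 0.97 in parr replicates 1 to 8 and at 0.22 in parr replicate 9. Among smolts and ocean fish with at least 10 of the probes it was 0.77 in spring replicate 2 and at most 0.61 in all others, so these others lay below 8 of the 9 parr.

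The fish labelled ocean spring replicate 2 shared the pattern of the parr over these probes. It had 83 of them, of which 76 were above 0, 26 above 1 and 72 at or above the lowest parr value of the same probe. Of the 76 with a value in another spring fish, 43 were above every other spring fish. Over the 200 probes its values correlated with the parr means at r = 0.68, against -0.10 to 0.35 in the 13 other spring fish with at least 20 of the probes and at most 0.48 in the 41 smolts with as many. Parr replicate 9 had r = 0.03, against 0.58 to 0.76 in the other parr, and 3 of its 85 values were above 1. With spring replicate 2, 9 of the spring means were above 1, and without it 1 was.

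Averaged over all fish, smolts stood between parr and ocean fish, with values for 40.3% of the 200 probes against 72.1% and 31.7%. This did not hold in every set. The wild Salmon and hatchery Puntledge smolts averaged 24.7% and 18.5%, below the ocean mean, and the other smolt sets lay above it. Among fish whose arrays lay in the range of the parr arrays, smolts averaged 13.3% and ocean fish 13.8%. The smolt share was above the ocean share for 164 of the 200 probes, against 54.7% of the other eligible probes. The choice of the probes took low ocean shares, which favoured this, so this comparison was not tested. No smolt mean value was above 1, and no mean over all ocean fish was either. Among other probes with a value in at least as many fish as the least measured of the 200, 0.367% of smolt means and 0.140% of ocean means were above 1.

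The smolts were caught in 6 sets of river and origin, which the choice of the probes did not use. The wild Chilliwack smolts, from the river of the parr, had values for a median of 52.75% of the 200 probes (26% to 64.5%, n = 8). The medians were 52% in wild Capilano smolts (37.5% to 81%, n = 6) and 25.75% in wild Salmon smolts (11.5% to 33%, n = 6). Among hatchery smolts they were 36.5% from the Capilano (20% to 82%, n = 9), 57.25% from the Chehalis (6.5% to 84%, n = 10) and 7.5% from the Puntledge (3% to 72.5%, n = 9). The share of all probes with a value was lowest in the Puntledge set too, with a median of 44.9% against 52.9% to 56.3% in the other sets.

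Having a value differed between the 6 smolt sets for 9 of the 200 probes, 1 of which was not tested, by a two-sided Fisher's exact test per probe with Benjamini-Hochberg adjustment over 31381 probes at a threshold of 0.05. Over all probes tested, 1.19% were called, and 1.48% of the probes outside the list whose share in smolts lay in the middle 90% of that of the 200 (8.33% to 66.7% of smolts). C203R041 had a value in 8 of 8 wild Chilliwack, 6 of 6 wild Capilano, 0 of 6 wild Salmon, 4 of 9 hatchery Capilano, 8 of 10 Chehalis and 2 of 9 Puntledge smolts (Fisher's exact test, adjusted p = 0.0164). C230R053 had a value in 8, 4, 0, 2, 7 and 1 smolts of the same sets (Fisher's exact test, adjusted p = 0.0219). In these 9 probes at most 1 Salmon smolt and at most 2 Puntledge smolts had a value. Without the Salmon set no probe of the 200 passed (0.305% of all probes), and without the Puntledge set none did (0% of all probes). Of the 200, 75 and 47 had an unadjusted p under 0.05 in these fits, against 86 with all sets. The share of all probes under that p was not counted, here or in the comparisons below. Such counts are thus not a result about the 200. Limma on cells coded 1 for a value and 0 for none called 30 with all sets (3.89% of all probes), 8 with the array's share of measured probes as a covariate (1.25%) and 6 with slide as a random block (1.14%).

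The wild Chilliwack smolts of 2008 were set against the 12 wild smolts of 2009, in which river and year cannot be told apart. Having a value differed for 0 of the 200 probes by Fisher's exact test with Benjamini-Hochberg adjustment (0% of all probes), with 5 not tested and 11 at an unadjusted p under 0.05, and limma on the same cells called 0 (0.0218% of all probes). With 8 and 12 fish the smallest p of Fisher's exact test is 7.94e-06, and times the 22966 probes tested this is 0.182, so a single probe could not pass. The share was higher in Chilliwack smolts for 62% of the 200 probes and lower for 31%, beside 51.2% higher over all probes, with a median difference of 12.5 points against 4.17 over all probes tested. The other wild smolts joined unlike sets. Wild Capilano smolts had a median of 52% of the 200 per fish and wild Salmon smolts 25.75%, against 52.75% in wild Chilliwack smolts. The part of each set in the difference was not tested. Values could be compared for 76 of the 200 probes, those with a value in at least 50% of both groups, and 2 passed in limma with Benjamini-Hochberg adjustment over 22628 probes (1.51% of all probes), 1 higher (0.623% of all probes) and 1 lower (0.884%) in Chilliwack smolts. C094R097 had log2 ratios of 0.53 to 1.56 in 7 Chilliwack smolts, against -0.25 to 0.57 in 6 other wild smolts. The ranges met only at their edges, and the difference was 0.89 (limma adjusted p = 0.0342). C199R094 had -1.37 to 0.17 in 6 Chilliwack smolts, against 0.03 to 1.03 in 6 other wild smolts, a difference of -1.21 (limma adjusted p = 0.0468). Neither passed with slide as a random block, with adjusted p of 0.160 and 0.205. Over the 6 sets together only 1 of the 200 probes could be tested on its values, and it did not pass (limma adjusted p = 0.371), beside 32.5% of all probes tested.

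Hatchery and wild smolts of the Capilano, caught in the same year, were compared next. By Fisher's exact test with Benjamini-Hochberg adjustment 0 of the 200 probes passed (0% of all probes), with 7 not tested and 14 at an unadjusted p under 0.05, and limma called 0 (0.0629% of all probes). With 9 hatchery and 6 wild fish the smallest p that the test can give is 0.0002, which is too large to pass over 20683 probes unless many probes reach it. The share was higher in hatchery smolts for 26% of the 200 probes and lower for 65.5%, beside 48.7% higher over all probes, with a median difference of -16.7 points against 0 over all probes tested.

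Ocean seasons were compared in turn. The probes were ranked on 1 pooled ocean share, over 76 fall, 64 summer, 15 spring and 9 winter fish. A low pooled share thus weighed fall and summer fish most. The limit of 50% also used the share of each single season. Differences between ocean seasons may follow in part from the choice, and how much was not tested. In summer against spring fish 0 of 200 probes passed Fisher's exact test with Benjamini-Hochberg adjustment (0% of all probes), with 5 at an unadjusted p under 0.05, and limma called 0 (0.192% of all probes). The share was higher in summer for 51% of the 200 probes and lower for 49%, beside 59.3% higher over all probes, a median difference of 0.31 points against 1.88 over all probes. With the array's share of measured probes as a covariate, 74 of the 200 were higher in summer, beside 53.3% of all probes. The medians were then -3.15 points and 0.98 points. In fall against summer fish 0 of 200 passed (0% of all probes), with 12 at an unadjusted p under 0.05 and 0 by limma. The share was higher in fall for 40% of the 200 probes and lower for 59.5%, beside 50.6% higher over all probes, with a median difference of -1.97 points against 0.08 over all probes. With the covariate 79 of the 200 were higher in fall, beside 50.4% of all probes, with medians of -2.08 points and 0.03 points.

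Winter fish were split between those with more of the 200 probes than most ocean fish and those with almost none. Replicates 1, 2, 3, 5 and 7 had 69%, 56%, 58.5%, 62.5% and 64.5%, replicate 9 had 22%, and replicates 4, 6 and 8 had 1%, 1.5% and 0%. Against fall fish 0 of 200 probes passed Fisher's exact test with Benjamini-Hochberg adjustment (0% of all probes), with 12 at an unadjusted p under 0.05. The share was higher in winter for 65% of the 200 probes and lower for 35%, beside 41.8% higher over all probes, a median difference of 7.75 points against -2.63 over all probes. Without replicates 4, 6 and 8 it was higher for 83% of the 200 and for 70.4% of all probes, with medians of 26.5 points and 7.02 points, and again 0 of the 200 passed (0.00308% of all probes), with 48 at an unadjusted p under 0.05. By limma on cells coded 1 or 0, 4 passed (3.59% of all probes), 3 of them higher in winter. With the array's share of measured probes as a covariate 9 passed (5.29%), with a random block for slide 3 (0.739%), and with the covariate but without replicates 4, 6 and 8 again 3 (0.413%). The arrays of winter replicates 1, 2, 3, 5 and 7 had values for 53.3% to 72.3% of all probes, against a median of 52.6% in fall fish. With the array's share of measured probes as a covariate, 148 of the 200 were higher in winter, beside 46.0% of all probes. Without replicates 4, 6 and 8 that fit had 139 of the 200 higher, beside 48.6% of all probes. The part of these arrays in the shares was not tested within a slide. The choice of the probes weighed fall fish far more than winter fish, which could favour higher shares in winter. That part was not tested either.

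Hatchery fall fish of 2009 were compared with wild fall fish of that year. Having a value differed for 0 of 200 probes by Fisher's exact test with Benjamini-Hochberg adjustment (0% of all probes), with 18 at an unadjusted p under 0.05 and 0 by limma. The share was higher in hatchery fish for 25.5% of the 200 probes and lower for 73.5%, and over all probes it was likewise higher for 25.5%, a median of -6.75 points against -3.86 over all probes. With the share of all probes on the array as a covariate the median was -1.36 points against -0.51 over all probes. In that fit 94 of the 200 were higher in hatchery fish, beside 45.048% of all probes.

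Catch area set no clear order. In summer the median share of the 200 probes with a value was 25.5% in the southern strait (n = 20), 33.5% in the middle strait (n = 20), 37.25% in the northern strait (n = 16) and 25.5% on the west coast (n = 8). In fall it was 32.5% (n = 27), 27.5% (n = 26), 29% (n = 13) and 25% (n = 10) in the same areas. The 3 ocean fish assigned to the Chilliwack stock had 0.5%, 29% and 64.5%, within the range of 0% to 76% of all ocean fish. The west coast summer fish were labelled Columbia, Oregon or North stock, and no other summer fish were. Area and stock thus cannot be told apart there. No test was made over areas or stocks.

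The 4 places of an array on its slide were compared too. Across the 4 positions the medians per fish were 32.5%, 33.25%, 31.25% and 30% of the 200 probes, and having a value differed by position for 0 of 200 probes in limma's F-test with season as a covariate (0.105% of all probes), with 9 at an unadjusted p under 0.05. Read as spot positions, the identifiers placed 15.5% of the 200 probes in array rows 1 to 42, against 24.1% of the other eligible probes, and the 4 column ranges held 22% to 27.5% of them. No test was made of these shares.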

How the data were processed

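RNA from the white muscle of single fish was amplified and dyed, then hybridised to an array together with a pool of all muscle samples in another Alexa dye, per the labels' protocols, with the same dye for every fish. The authors deposited an already normalized value per probe and fish. These deposited values were read as log2 ratios of fish over pool, the likely reading of their spread around the pool; the log base, direction, background correction, normalization and the filter behind the empty cells (47.3% of cells) are not stated in the labels or the files at hand. Array medians lay between -0.011 and 0.033, so the arrays were centred. The other deposited table, the series matrix, held the same log2 values but lacked the values of 3168 cells of parr replicate 3, in 26 of the 200 probes, and was used as an alternative. All value columns were matched to fish by name, 60 control rows were left out, and a match of probe identifiers against the RefSeq genes of assembly Okis_V2 found 0, so marker and gene lists were not used.

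The probes, lists and tests were chosen with earlier results of these data known. Parr and ocean shares and values were described only. Smolt sets, origins and ocean seasons were compared per probe on whether a cell held a value, with a two-sided Fisher's exact test over all probes neither measured in all nor empty in all fish compared, and on values with limma's lmFit and eBayes (R 4.3.3, limma 3.58.1, version 1.17.8 of data.table) where at least 50% of each group had a value. P-values were adjusted by Benjamini-Hochberg over all probes tested, with a threshold of 0.05. Counts at an unadjusted p under 0.05 have no share over all probes beside them. Differences are the first group named minus the second. Alternatives were limma on cells coded 1 or 0 with no covariate, with the array's measured share as covariate or with slide as a random block, other ways to choose the probes, a filter of 75%, quantile normalization and subsets. Chosen after seeing the data were the tests without winter replicates 4, 6 and 8, without the Salmon set or without the Puntledge set. So were choices of the probes without parr replicate 3, without those winter fish, without spring replicate 2 (with or without parr replicate 9), and with ocean fish only in the range of parr arrays. The tests were also run on simulated data, drawn with no effect of array or slide, so that run does not cover either. Named probes are the 2 ranked first, the 2 ranked last and the 2 just outside, the 2 with the highest parr means among those measured in every season, and per comparison up to 2 higher and 2 lower past the threshold with the largest difference; for the 6 smolt sets, which have no direction, they are the 2 with the lowest adjusted p.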

Additional observations from a re-analysis of the deposited data

Results flagged for a closer look

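Of 47 sets of values examined for a fish far from the others, 5 held one; chance gives about 1 in 20, and the sets share fish and probes. The median log2 ratio of the measured probes was 0.22 in parr replicate 9, against 0.63 to 0.97 in the other 8 parr. C078R090, at rank 4 the highest-ranked probe with a value in all 9 parr, had a log2 ratio of 0.23 in that fish and 1.37 to 2.30 in the others. Among 8 winter fish with a value, replicate 6 had a median of -1.85, from 3 probes, against -0.18 to 0.38 in the others. Puntledge smolt replicate 48 had 145 of the 200 probes, against 6 to 64 in the other 8 of its set, and values for 70.002% of all probes, against 40.7% to 52.5%.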

How the results depend on the processing

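Of 58 counts under alternatives, 48 were within 1.5 times the reported count. Most of these 48 were counts of 0 that stayed 0, some from tests that could hardly pass, and 9 were overlaps of the list of probes. For the reported counts of probes passing that were above 0, 4 of 7 alternatives were within that range for the smolt sets. For the values of wild Chilliwack against other wild smolts 0 of 3 were. Between smolt sets limma on cells coded 1 or 0 called 30 of the 200 probes (3.89% of all probes) in place of 9, and leaving out the Salmon set or the Puntledge set gave 0 in each case; the other alternatives gave 6 to 13. For winter against fall, limma on cells coded 1 or 0 called 4 with no covariate (3.59% of all probes), 9 with the measured share of the array as covariate (5.29%), 3 with a random block for slide (0.739%), and 3 with that covariate and without winter replicates 4, 6 and 8 (0.413%), in place of 0. The values of wild Chilliwack against other wild smolts gave 0 in place of 2 under a filter of 75%, which left 6 of the 200 probes, after quantile normalization, or when slide was a random block. The cause of these changes was not tested. Of the 200 probes, 151 to 194 were chosen again under 9 other ways to choose them, the lowest with only ocean fish in the range of the parr arrays, 171 without parr replicate 9 and 170 without it and spring replicate 2. A filter of 75% left none of the 200 probes for the values of the 6 smolt sets. Without spring replicate 2 the summer share was higher for 100 and lower for 97 probes, and 0 passed. No paired analysis was possible because replicate numbers only name the fish in accession order. The number of arrays, 9 each in parr and winter, and the empty cells limit what could be tested.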
